A study of Homo sapiens with 52 samples.

Results

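Immune checkpoint ligands on tumour cells are described here through 7 of the 78894 genes in the deposited gene-level values. The members were the rows whose gene name was CD274, PDCD1LG2, CD276, CD47, NT5E, PVR or NECTIN2. They were picked by name, with earlier results of these data known. RNA of HS578T, SUM159PT and MDA-MB-231 cells, 3 established lines of breast cancer, was sequenced after knockdown of NRP1 (neuropilin-1), a transmembrane co-receptor for semaphorins and vascular endothelial growth factors. Each line received 6 treatments. The siRNAs siNRP1#3 and siNRP1#5 and their non-targeting control siNT were reverse transfected at 20 nM and RNA was taken after 72 hrs. The shRNAs shNRP1#3 and shNRP1#5 and their control shNT were delivered by lentivirus, followed by puromycin selection, and RNA was taken 48 hrs after seeding. Sequence #3 was directed at transmembrane NRP1 alone and sequence #5 at both its transmembrane and soluble forms. The #5 target sequence was the same in the siRNA and the shRNA, while the #3 sequences differed. Transduced cells were taken as the population that survived selection, and no clone is described. The 18 groups of line and treatment had 3 samples each, apart from HS578T shNRP1#3, with replicates 1 and 2, and SUM159PT siNRP1#5, with replicates 2 and 3. This gave 52 samples in all, 17 each for HS578T and SUM159PT and 18 for MDA-MB-231. The siRNA replicates were independent experiments and the shRNA replicates were consecutive passages of the selected cells, so that p-values describe the spread between these samples.

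Checkpoint ligands are surface proteins through which a cell restrains the immune cells that touch it. PD-L1 (CD274) and PD-L2 (PDCD1LG2) bind PD-1 on T cells, and CD47 binds SIRP-alpha on macrophages and holds back phagocytosis. PVR (CD155) and NECTIN2 (CD112) bind the inhibitory receptor TIGIT as well as the activating receptor CD226. CD276 (B7-H3) is a member of the B7 family that is abundant on many carcinomas. NT5E (CD73) is an enzyme rather than a ligand in the strict sense, and makes extracellular adenosine, which acts on the adenosine receptor ADORA2A of lymphocytes. PD-L1 is the member best known to be induced, mainly by interferon gamma through the kinases JAK1 and JAK2 and the factor IRF1. Only RNA was measured here, not protein at the cell surface.

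Total expected counts per sample lay between 25310443 and 72003442, with a median of 44804505. Markers of leukocytes were low in HS578T and, apart from CD14, in MDA-MB-231, but not all of them in SUM159PT. The 9 markers summed to 0.29 to 2.58 TPM (transcripts per fixed total of transcripts, scaled for length) in HS578T, 0.87 to 6.16 in MDA-MB-231 and 4.79 to 24.1 in SUM159PT, with the B cell marker MS4A1 at 0 in every sample and the T cell marker CD3E at no more than 0.07. In SUM159PT the monocyte marker CD14 ran from 0.74 to 23.1 TPM and the pan-leukocyte marker PTPRC from 0.47 to 13.1. Another T cell marker, CD3D, ran from 0 to 1.55 TPM in that line. CD14 reached 5.96 TPM in MDA-MB-231. Of 3 endothelial markers, PECAM1 ran from 2.52 to 15.9 TPM in SUM159PT and CDH5 reached 3.87 in MDA-MB-231. The part of these genes in the results was not tested. The lines are labelled claudin-low. The 4 genes that such cells lack (CLDN3, CLDN4, CLDN7 and CDH1) summed to 0.49 to 29.4 TPM in SUM159PT and 0.34 to 34.5 in HS578T, but to 78.4 to 296 in MDA-MB-231, which went against the label through CLDN4 (62.6 to 226 TPM) and CLDN7 (10.4 to 61.5), while CDH1 was at most 3.33 there. The 4 genes taken as high in such cells summed to 1352 to 3600 TPM in MDA-MB-231, 1417 to 6168 in SUM159PT and 2643 to 5862 in HS578T. Nearly all of this was VIM, which was high as the label has it. The line means of the others were far lower, at 4.76 to 11.5 TPM for ZEB1, 4.77 to 23.7 for SNAI1 and 10.6 to 87.2 for ITGA6. In CPM (counts scaled to a common library total after TMM normalisation), NRP1 stood at 22.9, 4.83, 39.6 and 19.4% of its non-targeting control with siNRP1#3, siNRP1#5, shNRP1#3 and shNRP1#5 in SUM159PT. The same order gave 60.5, 3.32, 35.5 and 48.1% in MDA-MB-231, and 42.4, 15.6, 33.8 and 23.7% in HS578T. With siNRP1#3 the reduction was smaller in TPM, where the ratio of means to siNT was 0.688 in HS578T, 0.989 in MDA-MB-231 and 0.406 in SUM159PT. On counts NRP1 passed the test in every comparison but HS578T shNRP1#3 (adjusted p = 0.069, edgeR).

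A set of libraries stood apart. By genes that the controls of one line expressed and those of another lacked, RNA of MDA-MB-231 made up 11.1 to 21.6% of the 3 HS578T siNRP1#5 libraries, and replicate 2 of them also held 6.87% of SUM159PT. In no other library did a foreign line exceed 6.41%, reached in HS578T siNRP1#3. Only 3 marker genes served the estimate for MDA-MB-231 RNA in HS578T. With 60 markers, picked by a rule chosen after the data had been seen, the shares were 13.7 to 24.3% in HS578T siNRP1#5, 2.82 to 7.23% in HS578T siNRP1#3 and 0.709 to 2.33% in HS578T siNT. The changes of CD274 in HS578T are therefore also given after subtraction of foreign RNA. By the 60 markers, MDA-MB-231 RNA would bring 14.7 to 37.7% of the NT5E, 16.5 to 34.5% of the CD47, 9.01 to 22.0% of the PVR, 10.5 to 20.3% of the NECTIN2 and 5.18 to 12.0% of the CD276 measured in HS578T siNRP1#5. After subtraction none of the 6 members other than CD274 passed there (adjusted p from 0.194 to 0.622, or 0.178 to 0.666 with the 60 markers). Groups that differ in the number of cells of a type cannot be told apart from groups that differ in RNA per cell in such bulk samples.

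All 7 genes are protein coding and passed the filter on low counts in every line. On GRCh38, CD274 lies at chr9:5450503-5470566 and PDCD1LG2 at chr9:5510531-5571282, both on the plus strand with 39964 bases between them. PVR (chr19:44643798-44666162) and NECTIN2 (chr19:44846175-44889223) share chromosome 19, 180012 bases apart, both on the plus strand. CD276 is at chr15:73683966-73714514 and NT5E at chr6:85449584-85495791 on the plus strand, and CD47 at chr3:108043091-108091862 on the minus strand. RefSeq promoters (GRCh38.p14) were matched for 6 of the 7 genes, PDCD1LG2 being the exception. They were searched on both strands over the 250 bases before the start for the interferon response element GAAANNGAA, for TTCNNNGAA as a STAT site, for the AP-1 site TGANTCA, for the E-box CACGTG, for the GC box GGGCGG and for the TATA box TATAAA. CD274 alone held the interferon element, in 2 overlapping copies, and the STAT site, and these are shown because CD274 was the member with the largest changes below. The stretch spans chr9:5450292-5450451 on the plus strand, from 250 to 91 bases before the RefSeq start, with the 2 overlapping interferon elements and then the STAT site in capitals.
CD274: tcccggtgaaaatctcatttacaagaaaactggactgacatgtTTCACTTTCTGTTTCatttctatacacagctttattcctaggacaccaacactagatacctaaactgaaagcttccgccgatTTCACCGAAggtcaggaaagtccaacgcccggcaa
The interferon element occurred in 6.88% and the STAT site in 6.57% of the 35116 RefSeq promoters of this length. The 250 bases of CD274 were 54.8% G or C, near the median of all promoters of 58.0%. Those of the other members were richer in G and C, at 67.6% in NECTIN2, 70.0% in PVR, 75.2% in NT5E, 79.6% in CD47, and 77.2 and 80.8% at the pair of CD276 starts. GC boxes, present in 42.6% of all promoters, were found 1 time in CD274, 2 times in NT5E, 3 times in NECTIN2, 6 times in CD47 and 2 and 7 times at the CD276 starts, and not in PVR. No AP-1, E-box or TATA match was found in any of them, against 6.57, 6.34 and 10.7% of all promoters. A match describes letters, not binding.

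Levels between genes were compared in TPM, which accounts for transcript length. In the non-targeting controls, with siNT and shNT pooled (n = 6 per line), CD276 was the most abundant member in SUM159PT (165 ± 31.1 TPM, SD) and in HS578T (99.1 ± 26.1). In MDA-MB-231, NECTIN2 stood at 177 ± 13.2 and NT5E at 152 ± 36.3 TPM, above CD276 at 83.6 ± 11.7. The PD-1 ligands were the least abundant members in all 3 lines. CD274 was at 0.672 ± 0.259 TPM in HS578T, 8.81 ± 1.83 in MDA-MB-231 and 4.88 ± 1.88 in SUM159PT, while PDCD1LG2 was at 0.993 ± 0.375, 1.37 ± 0.216 and 3.77 ± 1.32. In single samples CD274 fell to 19 and PDCD1LG2 to 17 expected counts, where counting error alone is large, whereas no other member had fewer than 433.

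The lines differed in most members, but so did most genes. Between controls, 59.4% of all genes differed between SUM159PT and MDA-MB-231, 70.2% between HS578T and MDA-MB-231 and 63.5% between HS578T and SUM159PT (edgeR, adjusted p under 0.05), and 13 of the 21 tests of the members passed. CD274 in HS578T was 14.6-fold lower than in MDA-MB-231 (log2 fold change -3.87, adjusted p = 4.15e-15) and 10.4-fold lower than in SUM159PT (-3.37, adjusted p = 2.76e-13). NT5E was lowest in SUM159PT, by a log2 fold change of -2.57 against MDA-MB-231 (adjusted p = 6.58e-14), and HS578T stood 2.44 above SUM159PT (adjusted p = 3.1e-13). PDCD1LG2 was highest in SUM159PT, 1.81 above MDA-MB-231 (adjusted p = 8.74e-07), with HS578T 1.53 below SUM159PT on the log2 scale (-1.53, adjusted p = 1.53e-05). CD276 in MDA-MB-231 was the lowest of the 3 lines, with log2 differences of 1.34 for SUM159PT and 1.02 for HS578T (adjusted p = 4.38e-09 and 8.75e-07). On TPM the latter difference was 0.22 (limma, adjusted p = 0.221). CD47 was lower in HS578T than in MDA-MB-231 (-0.72, adjusted p = 6.99e-05) and SUM159PT (-1.01, adjusted p = 4.01e-07). NECTIN2 was highest in MDA-MB-231, with -1.06 for SUM159PT (adjusted p = 1.38e-05) and -0.47 for HS578T (adjusted p = 0.0312), and HS578T was above SUM159PT by 0.59 (adjusted p = 0.00896). The differences of NECTIN2 to HS578T failed the test without replicate 3 (adjusted p = 0.0867 against MDA-MB-231 and 0.0841 against SUM159PT), and the first of them also without replicate 2 (0.157). With siNT samples alone the first was -0.13 (adjusted p = 0.718), and with shNT samples alone the second was 0.37 (0.27). The first was also lost in DESeq2 and with DESeq2 size factors in edgeR, and the second by limma on log2(TPM + 0.1). PVR did not pass between any pair of lines on counts, with log2 differences from -0.10 to 0.14.

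**Figure D1:**
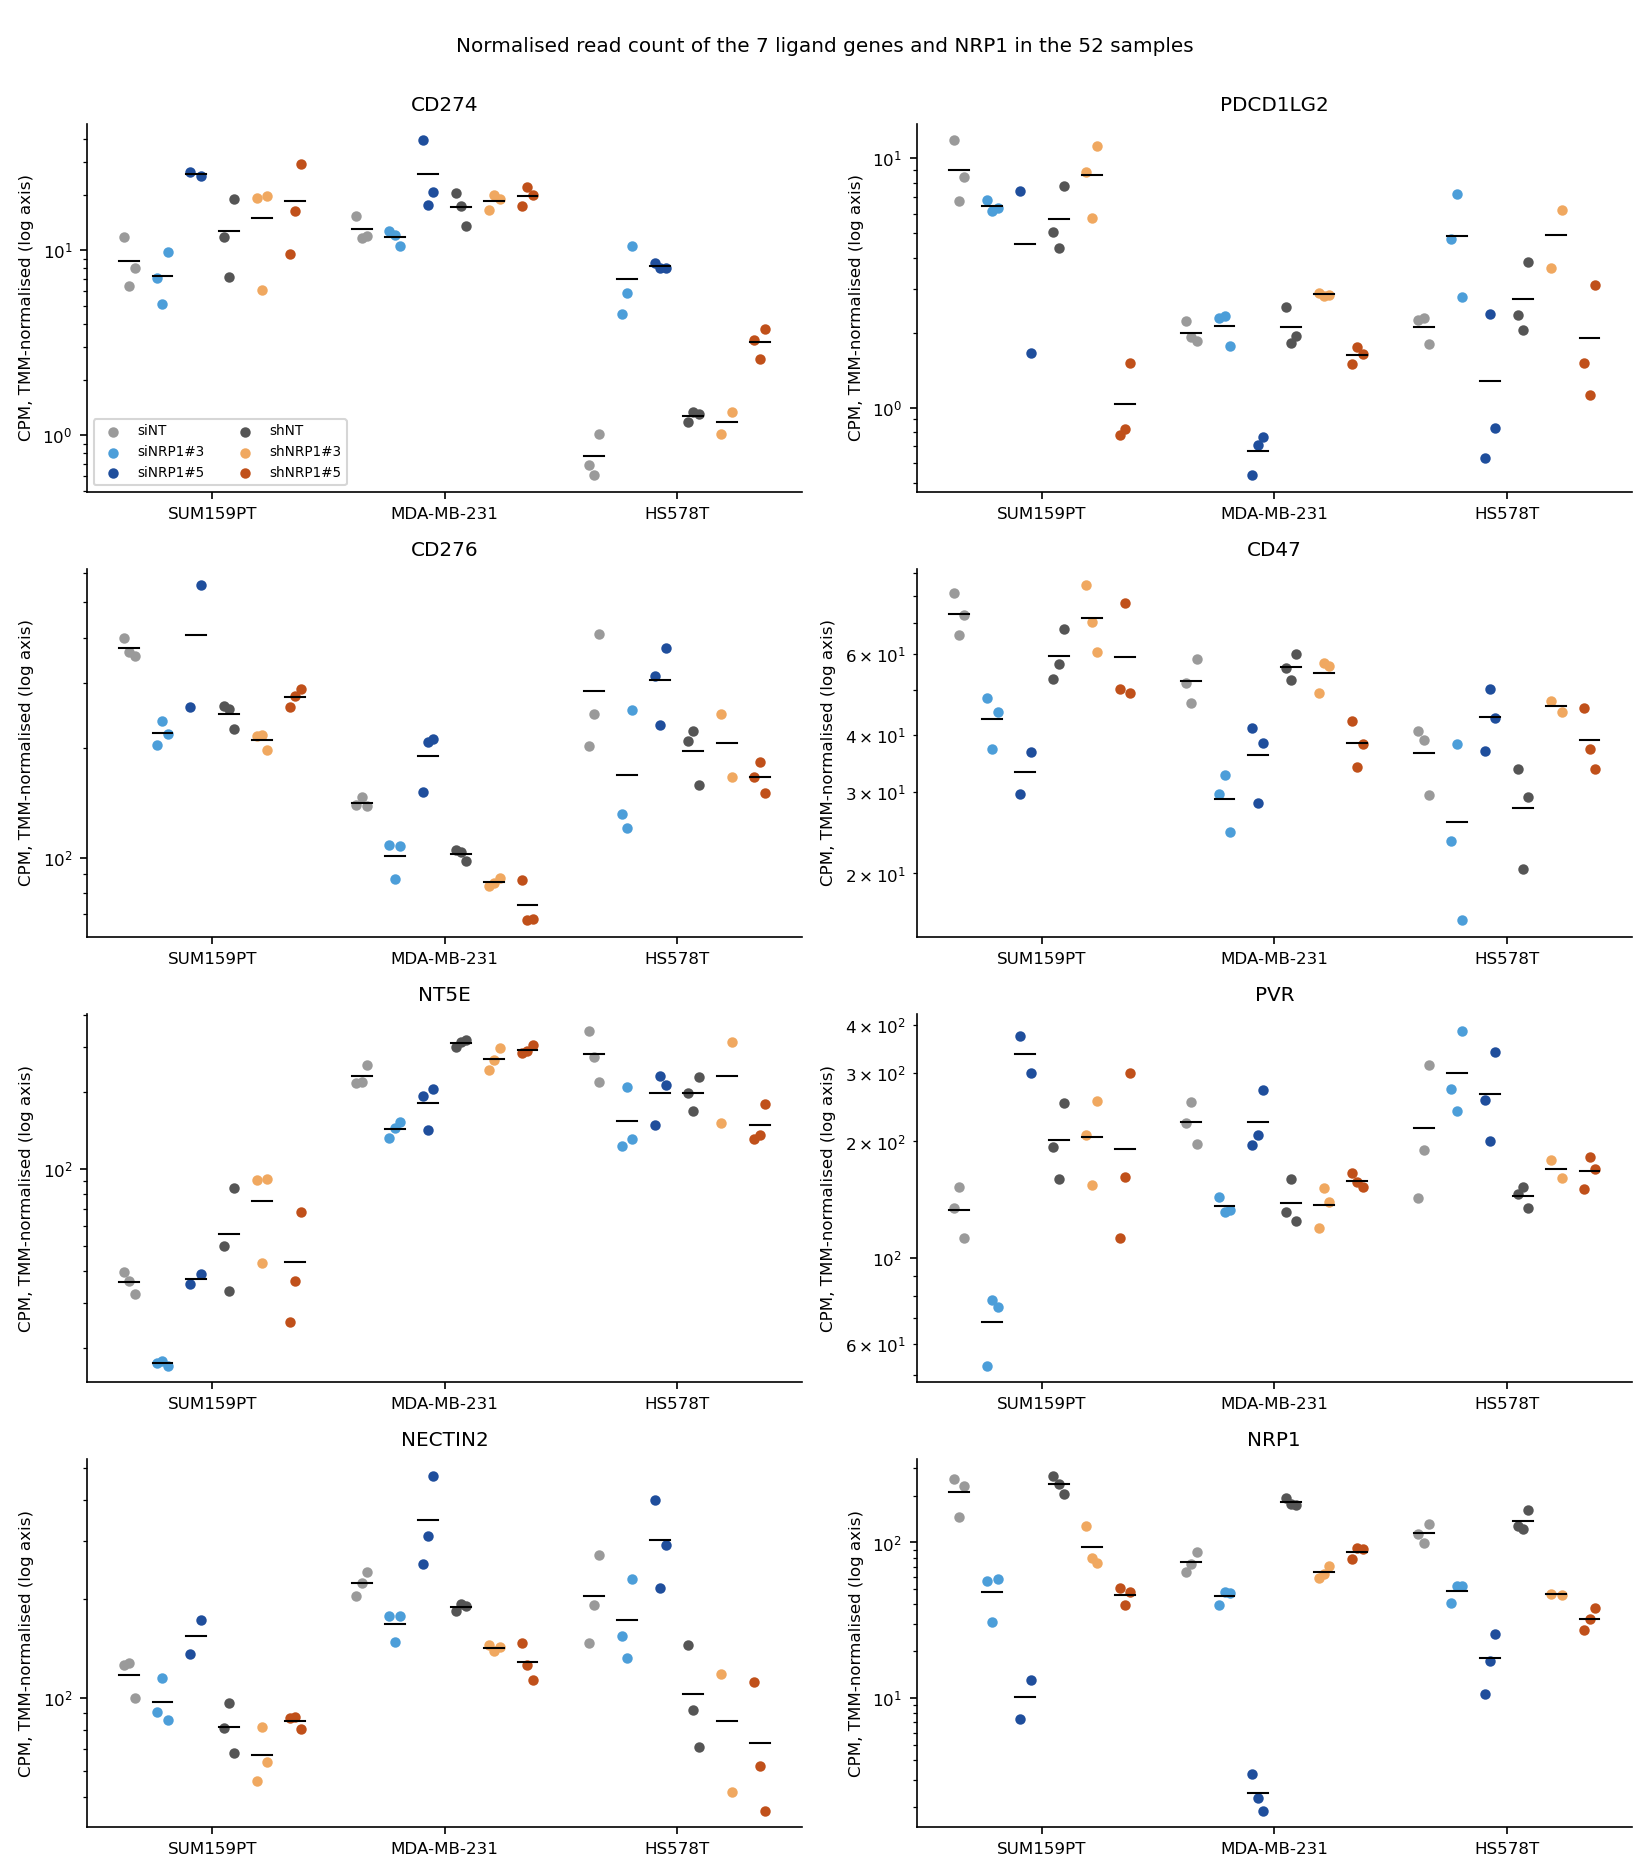
Level of the 7 members and NRP1 in each of the 52 samples, in CPM on a log axis, by cell line and treatment. Points are samples and bars are group means. CD274 in HS578T lies near 1 in the siNT, shNT and shNRP1#3 samples and between 4.51 and 10.5 with the siRNAs against NRP1.

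Over the 18 groups, CD274 spanned the widest range of the 7 genes, from a mean of 0.771 CPM in HS578T siNT to 26.0 in MDA-MB-231 siNRP1#5, a 33.7-fold spread. In its order, 3 of the 17 steps between neighbouring groups separated groups whose samples did not overlap. Such steps were not counted over all genes, so their number here is a description only. These lay between SUM159PT siNRP1#5 and MDA-MB-231 shNRP1#5, between HS578T siNRP1#3 and HS578T shNRP1#5, and between HS578T shNRP1#5 and HS578T shNT. NT5E spanned 17.8-fold (MDA-MB-231 shNT at 311 CPM to SUM159PT siNRP1#3 at 17.5) with 2 such steps, and PDCD1LG2 13.4-fold (SUM159PT siNT at 8.99 to MDA-MB-231 siNRP1#5 at 0.668) with 1. The other members spanned less. CD276 ran from 407 in SUM159PT siNRP1#5 to 74.0 in MDA-MB-231 shNRP1#5 (5.5-fold, 2 steps), NECTIN2 from 347 in MDA-MB-231 siNRP1#5 to 66.9 in SUM159PT shNRP1#3 (5.18-fold, 0 steps), and PVR from 337 in SUM159PT siNRP1#5 to 68.4 in SUM159PT siNRP1#3 (4.92-fold, 1 step). CD47 had the narrowest range, from 73.4 in SUM159PT siNT to 25.9 in HS578T siNRP1#3 (2.84-fold), and all 17 of its neighbouring groups overlapped.

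Each NRP1-targeting sequence was compared with its own non-targeting control in each line, which gave 12 comparisons and 84 tests of the members, of which 21 passed. Which members passed depended on line, sequence and delivery. CD274 passed 4 times, always higher, and CD47 passed 5 times, NT5E 2 times and PDCD1LG2 2 times, always lower. CD276 passed 4 times (1 higher, 3 lower), and PVR and NECTIN2 passed 1 time in each direction. By comparison, 4 of the 7 members passed with siNRP1#3, 6 with siNRP1#5, 0 with shNRP1#3 and 3 with shNRP1#5 in MDA-MB-231, where 25.7, 29.4, 3.65 and 20.7% of all genes passed. In SUM159PT 2, 3, 0 and 1 members passed, beside 8.66, 17.9, 1.4 and 5.94% of all genes. In HS578T 1, 1, 0 and 0 passed, beside 4.65, 18.7, 0.0356 and 0.946% of all genes. The median log2 fold change of the members with siNRP1#3, siNRP1#5, shNRP1#3 and shNRP1#5 was -0.73, 0.17, 0.27 and 0.06 in SUM159PT, -0.46, 0.02, -0.03 and -0.36 in MDA-MB-231, and -0.19, 0.27, 0.20 and -0.24 in HS578T. The median over all genes lay between -0.00579 and 0.0328 in the 12 knockdown comparisons.

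**Figure D2:**
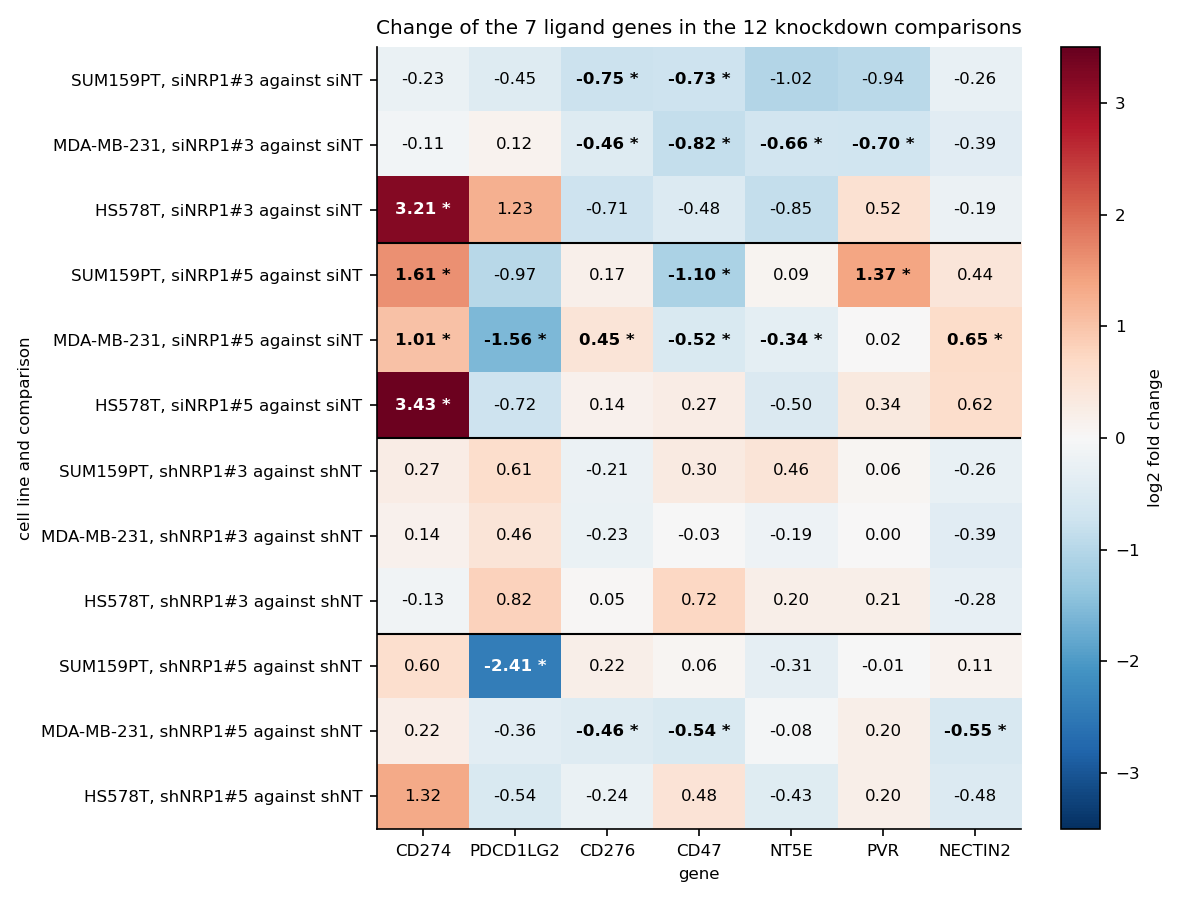
Log2 fold change of each member (columns) with each NRP1-targeting sequence against its non-targeting control (rows, by sequence and cell line), as fitted by edgeR, with asterisks for adjusted p under 0.05. CD274 is the only member with calls in all 3 lines, and all 4 of its calls are increases.

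CD274, which encodes PD-L1, changed most in HS578T, the line where it started lowest. In HS578T it measured 0.690, 0.606 and 1.02 CPM in the siNT samples, 4.51, 5.86 and 10.5 with siNRP1#3, and 8.53, 8.02 and 8.01 with siNRP1#5. All 6 knockdown samples lay above all 3 controls. The increase was 9.26-fold with siNRP1#3 (log2 fold change 3.21, SE 0.34, adjusted p = 0.000126) and 10.8-fold with siNRP1#5 (3.43, SE 0.35, adjusted p = 3.68e-05). Both calls held in every alternative and with any 1 library left out. With RNA of other lines subtracted, the log2 fold changes were 3.45 and 3.54 (adjusted p = 0.000229 and 6.22e-05), and with the 60 markers 3.60 and 3.68. In the siNRP1#5 replicates 1, 2 and 3, RNA of MDA-MB-231 would bring 37.1, 31.8 and 22.2% of the CD274 measured by the 60-marker estimate.

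In the transduced HS578T cells the shNT samples held 1.19, 1.33 and 1.3 CPM of CD274, those of shNRP1#3 1.01 and 1.34, and those of shNRP1#5 3.26, 2.59 and 3.77. The shNRP1#5 samples lay above all controls and the shNRP1#3 samples did not. The 2.5-fold difference with shNRP1#5 missed the threshold (1.32, SE 0.32, adjusted p = 0.0599). It passed when replicate number entered the fit as a block (0.0135), and in this comparison all 3 pairs of same-numbered samples deviated together.

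In MDA-MB-231, CD274 rose on counts with siNRP1#5 alone. The siNT samples held 15.4, 11.6 and 12.0 CPM, those of siNRP1#3 12.7, 12.1 and 10.6, and those of siNRP1#5 39.5, 17.7 and 20.8. The siNRP1#5 samples did not overlap the controls, although replicate 1 was well above the other two. The change was 2.02-fold with siNRP1#5 (1.01, SE 0.23, adjusted p = 0.00239) and was lost in a fit over all 52 samples (adjusted p = 0.0722). Without siNRP1#5 replicate 1 the log2 fold change was 0.60 (adjusted p = 0.0125). With siNRP1#3 the log2 fold change was -0.11 (SE 0.23, adjusted p = 0.766). By limma on TPM, however, CD274 was higher with siNRP1#3 too and passed, as given below. The shRNAs gave 16.6, 20.1 and 19.1 CPM with shNRP1#3 and 17.3, 22.1 and 20.0 with shNRP1#5, within reach of shNT at 20.4, 17.4 and 13.5.

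In SUM159PT, CD274 measured 11.8, 6.45 and 8.04 CPM with siNT, 7.07, 5.10 and 9.77 with siNRP1#3, and 26.6 and 25.2 with siNRP1#5. Both siNRP1#5 samples lay above every other siRNA sample of the line. The 3.05-fold increase passed (1.61, SE 0.50, adjusted p = 0.0366), but not without any 1 of the 5 libraries, siNRP1#5 replicate 2 or 3 or siNT replicate 1, 2 or 3 (adjusted p from 0.0516 to 0.0986). It was also lost by limma on TPM (0.158 and 0.345 with pseudocounts of 0.1 and 1) and with only the 2 groups in the fit (0.0797). With the shRNAs the samples of a group spread more than the groups differed, such as 9.61, 16.4 and 29.4 CPM with shNRP1#5 against 11.9, 7.18 and 19.1 with shNT.

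PDCD1LG2, which encodes PD-L2 and neighbours CD274, did not follow it. In MDA-MB-231 it was at 2.23, 1.92 and 1.84 CPM with siNT, 2.28, 2.32 and 1.76 with siNRP1#3 and 0.535, 0.708 and 0.762 with siNRP1#5. The siNRP1#5 samples lay below all others, and the 2.96-fold decrease (-1.56, SE 0.21, adjusted p = 1.7e-05) held in every alternative and with any 1 library left out. In SUM159PT it was at 5.05, 4.39 and 7.76 CPM with shNT, 8.78, 5.76 and 11.2 with shNRP1#3 and 0.778, 0.821 and 1.50 with shNRP1#5. The groups of shNRP1#5 and shNT did not overlap, and the 5.32-fold decrease (-2.41, SE 0.45, adjusted p = 0.00414) also held throughout. In HS578T siNRP1#3 the samples at 4.74, 7.20 and 2.78 CPM lay above siNT at 2.25, 2.28 and 1.81 without passing (1.23, SE 0.49, adjusted p = 0.164). The siNRP1#5 samples at 0.628, 2.38 and 0.826 overlapped the controls, and MDA-MB-231 RNA would bring 77.4, 16.5 and 33.1% of them.

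CD276, which encodes B7-H3, moved by less than 2-fold everywhere, and in MDA-MB-231 its direction differed between the siRNAs and, for sequence #5, between siRNA and shRNA. In MDA-MB-231 it was at 139, 146 and 138 CPM with siNT, 108, 87.3 and 108 with siNRP1#3, and 151, 208 and 212 with siNRP1#5. The siNRP1#3 samples lay below and the siNRP1#5 samples above all controls (-0.46, SE 0.13, adjusted p = 0.015, and 0.45, SE 0.13, adjusted p = 0.0141). Either call was lost without replicate 2 of the knockdown group (adjusted p = 0.0783 and 0.0759) and in the fit over 52 samples (0.251 and 0.294). The siNRP1#5 call was also lost with only the 2 groups in the fit (0.126) and by limma on TPM, with log2 fold changes of 0.18 at either pseudocount (0.296 and 0.454). With shNRP1#5, MDA-MB-231 held 86.6, 67.3 and 68.0 CPM against 105, 103 and 97.9 with shNT. That decrease (-0.46, SE 0.13, adjusted p = 0.0177) was lost without shNRP1#5 replicate 2 (0.0870) or 3 (0.0844) or shNT replicate 2 (0.0551), and in the fit over 52 samples (0.314). In SUM159PT, siNRP1#3 gave 204, 236 and 217 CPM against 400.2, 365 and 357 with siNT, without overlap (-0.75, SE 0.22, adjusted p = 0.0417). Leaving out any 1 of these 6 libraries took it past the threshold, at adjusted p from 0.0658 to 0.152, as did limma on TPM (0.176 and 0.303). The 2 SUM159PT siNRP1#5 samples were far apart, at 258 and 556 CPM.

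CD47, the ligand of SIRP-alpha, fell in 5 of the 8 comparisons in SUM159PT and MDA-MB-231 and passed in none of the 4 in HS578T. In MDA-MB-231 it was at 51.8, 46.9 and 58.4 CPM with siNT, 29.8, 32.7 and 24.6 with siNRP1#3, and 41.5, 28.4 and 38.4 with siNRP1#5. All 6 knockdown samples lay below all 3 controls, with a 1.77-fold decrease for siNRP1#3 (-0.82, SE 0.14, adjusted p = 0.00025) and a smaller one for siNRP1#5 (-0.52, SE 0.14, adjusted p = 0.00715). The former held in every alternative, and the latter was lost in the fit over 52 samples (0.119) and with only the 2 groups in the fit (0.106). With shNRP1#5 it was at 42.9, 34.1 and 38.3 CPM against 55.8, 52.6 and 60.1 with shNT, without overlap (-0.54, SE 0.14, adjusted p = 0.00902), a call that was lost without shNRP1#5 replicate 2 (0.0580) or shNT replicate 3 (0.0501), in the fit over 52 samples (0.171) and by limma on TPM (-0.30 and -0.29, adjusted p = 0.0937 and 0.139).

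In SUM159PT, CD47 was at 81.5, 65.8 and 72.9 CPM with siNT, 48.1, 37.2 and 44.9 with siNRP1#3, and 29.8 and 36.7 with siNRP1#5. No knockdown sample reached a control. The decrease was 2.14-fold with siNRP1#5 (-1.10, SE 0.24, adjusted p = 0.00648), which held without any 1 library but not with only the 2 groups in the fit (0.123). With siNRP1#3 it was smaller (-0.73, SE 0.21, adjusted p = 0.0388) and held only without siNT replicate 2, being lost without siNT replicate 1 or 3 or any 1 siNRP1#3 library (adjusted p from 0.0769 to 0.126). It was lost by limma on TPM, without the filter on low counts and with only the 2 groups as well (0.0567 to 0.0889). In HS578T the shRNA samples pointed the other way without passing, with 47.5 and 44.8 CPM for shNRP1#3 and 45.7, 37.4 and 33.7 for shNRP1#5 against 33.7, 20.4 and 29.3 with shNT (0.72 and 0.48, adjusted p = 0.659 and 0.328).

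NT5E, the adenosine-producing ectoenzyme, was lower with siNRP1#3 in all 3 lines, though it passed in only 1 of them. In MDA-MB-231 it was at 217, 219.8 and 255 CPM with siNT, 133, 145 and 153 with siNRP1#3, and 194, 142 and 206 with siNRP1#5. Neither knockdown group overlapped the controls (-0.66, SE 0.12, adjusted p = 0.000397 for siNRP1#3, and -0.34, SE 0.11, adjusted p = 0.0314 for siNRP1#5). The siNRP1#3 call was lost in the fit over 52 samples (0.161), and the siNRP1#5 call in that fit (0.524), in 4 of the 9 other alternatives (0.0576 to 0.257) and without siNRP1#5 replicate 2 (-0.22, adjusted p = 0.152) or siNT replicate 3 (0.128). In SUM159PT it was at 39.6, 36.6 and 32.5 CPM with siNT and 17.5, 17.9 and 17.1 with siNRP1#3, clearly separate groups whose difference missed the threshold (-1.02, SE 0.36, adjusted p = 0.0821). It passed when replicate number entered the fit as a block (0.0148), in a comparison where all 3 pairs deviated together. In HS578T, siNT at 348, 275 and 219.7 CPM lay above siNRP1#3 at 124, 209 and 131 without passing (-0.85, SE 0.28, adjusted p = 0.0975). No shRNA changed NT5E beyond the threshold.

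PVR, a ligand of TIGIT and CD226, lay on opposite sides of its control with the 2 siRNAs in SUM159PT. It was at 134, 153 and 112 CPM with siNT, 52.7, 77.8 and 74.7 with siNRP1#3, and 374 and 299.6 with siNRP1#5. The 3 groups did not overlap. The increase with siNRP1#5 was 2.59-fold (1.37, SE 0.33, adjusted p = 0.00981) and held with any 1 library left out, but not by limma on log2(TPM + 1) (0.0645) or with only the 2 groups in the fit (0.0719). The lower level with siNRP1#3 missed the threshold (-0.94, SE 0.30, adjusted p = 0.06) but passed with the replicate block (adjusted p = 0.00994). In MDA-MB-231, PVR fell 1.62-fold with siNRP1#3, from 224, 253 and 197 CPM to 144, 131 and 133 (-0.70, SE 0.13, adjusted p = 0.000635). That call was lost in the fit over 52 samples (0.0739). The siNRP1#5 samples of that line, at 196, 208 and 271 CPM, overlapped the controls (0.02).

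NECTIN2, which also binds TIGIT, passed in MDA-MB-231 alone. It was at 205, 224 and 241 CPM with siNT and 255, 311 and 475 with siNRP1#5, where every knockdown sample lay above every control. The increase was 1.57-fold (0.65, SE 0.16, adjusted p = 0.00444) and was lost in the fit over 52 samples (0.171), with only the 2 groups in the fit (0.0834) and by limma on TPM (0.35 at either pseudocount, adjusted p = 0.056 and 0.126). Without siNRP1#5 replicate 3 it was 0.38 (adjusted p = 0.0294). With shNRP1#5 it was at 147, 126 and 113 CPM against 184, 193 and 191 with shNT, again without overlap but in the other direction (-0.55, SE 0.16, adjusted p = 0.019). This decrease was lost without shNRP1#5 replicate 2 (0.0649) or 3 (0.0962) or shNT replicate 2 (0.0586) or 3 (0.0615), and in the fit over 52 samples (0.317). In HS578T siNRP1#5, NECTIN2 reached 400.4, 216 and 292 CPM beside 147, 192 and 272 with siNT and did not pass (0.62, adjusted p = 0.279).

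Whether a sequence changed a member equally in the 3 lines was tested in a fit over all 52 samples. Unequal changes passed in 2 of 7 members with siNRP1#3, 3 with siNRP1#5, 0 with shNRP1#3 and 1 with shNRP1#5, where 3.42, 18.2, 0.747 and 3.81% of all genes passed. With siNRP1#3, CD274 (adjusted p = 9.7e-05) was higher on counts in HS578T alone. In TPM its mean with siNRP1#3 was above siNT in MDA-MB-231 and SUM159PT too, as given below. PVR with siNRP1#3 (adjusted p = 0.0183) was lower in MDA-MB-231 and SUM159PT and not in HS578T (0.52). With siNRP1#5, unequal changes were found for CD274 (adjusted p = 0.00305), CD47 (adjusted p = 0.0070) and PVR (adjusted p = 0.0175). The HS578T siNRP1#5 libraries in these tests held the MDA-MB-231 RNA described above, which was not subtracted for these values. PDCD1LG2 differed with shNRP1#5 (adjusted p = 0.0376). Only CD274 with siNRP1#3 held when replicate 1, 2 or 3 was left out of all groups. CD274 with siNRP1#5 was lost without replicate 2 (0.0627), PVR with siNRP1#3 without replicate 1 (0.450) or 2 (0.298), and PVR with siNRP1#5 without replicate 1 (0.101) or 2 (0.266). CD47 with siNRP1#5 (0.0504, 0.0860 and 0.0672) and PDCD1LG2 with shNRP1#5 (0.380, 0.120 and 0.0918) were lost without replicate 1, 2 or 3.

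**Figure D3:**
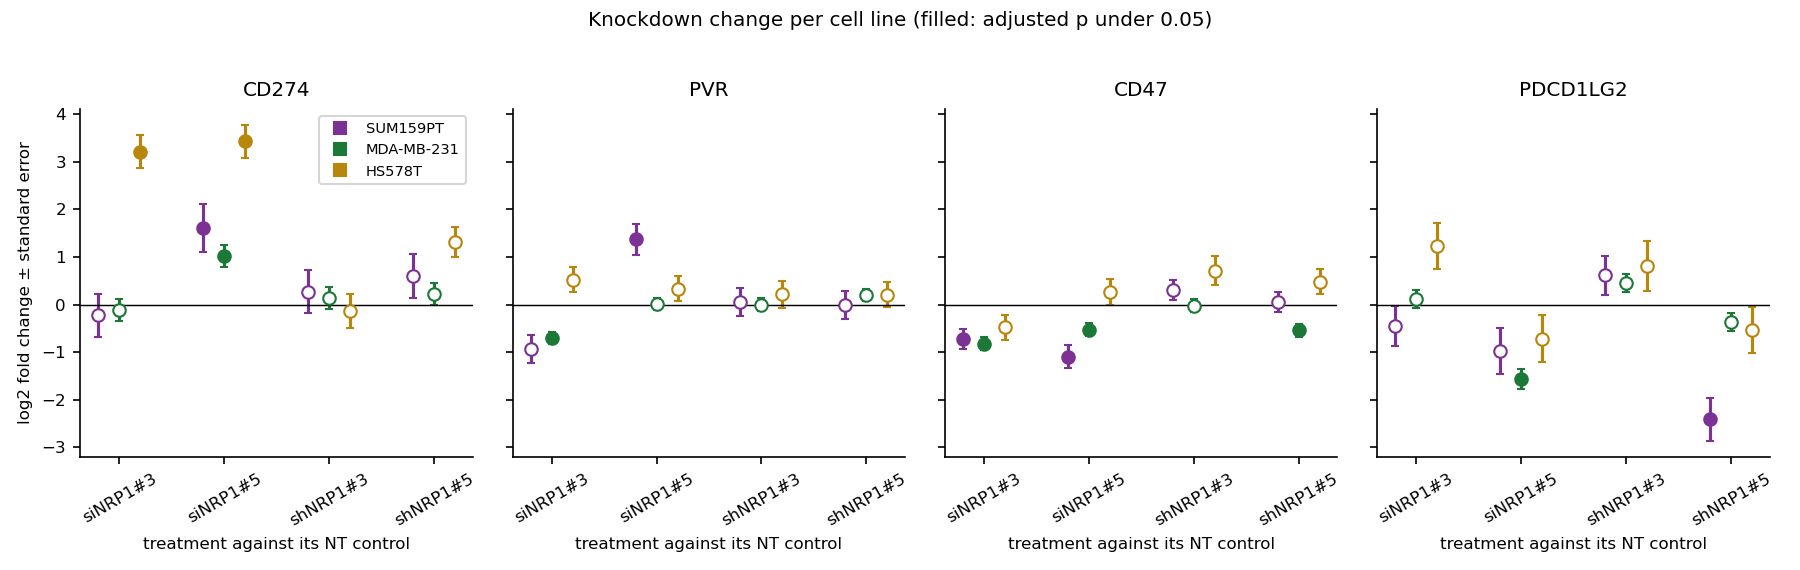
Log2 fold change with its standard error for CD274, PVR, CD47 and PDCD1LG2 with each NRP1-targeting sequence, by cell line. Filled symbols mark adjusted p under 0.05 against the non-targeting control. CD274 in HS578T stands at 3.21 and 3.43 with the siRNAs, while the other lines lie between -0.23 and 1.61.

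Sequences #5 and #3 were compared directly within each line and delivery. In MDA-MB-231, 6 of 7 members differed between the siRNAs and 2 between the shRNAs (39.0 and 14.2% of all genes). In SUM159PT the counts were 5 and 1 (29.7 and 8.71% of all genes), and in HS578T 1 and 0 (18.1 and 0.544%). PDCD1LG2 passed in 4 of the 6 comparisons, lower with #5 in each, with log2 differences of -1.69 in MDA-MB-231 siRNA (adjusted p = 4e-06), -0.82 in MDA-MB-231 shRNA (adjusted p = 0.00847), -1.95 in HS578T siRNA (adjusted p = 0.0145) and -3.02 in SUM159PT shRNA (8.13-fold, adjusted p = 0.000526). The HS578T call was lost without siNRP1#3 replicate 2 (0.0509) or siNRP1#5 replicate 1 (0.0570) or 3 (0.0640) and by limma on log2(TPM + 1) (0.0649), and that of the MDA-MB-231 shRNA in the fit over 52 samples (0.358). CD274 passed in 2 of the 6, higher with #5, in MDA-MB-231 siRNA (1.12, adjusted p = 0.000698) and SUM159PT siRNA (1.83, adjusted p = 0.013), the latter lost without siNRP1#3 replicate 2 (0.0502). By limma on log2(TPM + 0.1) these differences were 0.08 (adjusted p = 0.776) and 1.00 (0.178), and neither passed. Without siNRP1#5 replicate 1 the first was 0.71 (adjusted p = 0.00357).

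The nectin-family ligands and CD276 were also higher with siNRP1#5 than with siNRP1#3 in both of these lines. PVR differed 4.96-fold in SUM159PT (2.31, adjusted p = 0.000175) and by 0.71 in MDA-MB-231 (adjusted p = 0.000229). NECTIN2 differed by 1.03 in MDA-MB-231 (adjusted p = 4.41e-05) and by 0.69 in SUM159PT (adjusted p = 0.026), where the call was lost without siNRP1#3 replicate 1 (0.0802) or 3 (0.0824) or siNRP1#5 replicate 3 (0.197). CD276 differed by 0.90 (adjusted p = 2.37e-05) and 0.92 (adjusted p = 0.00908), and the SUM159PT value dropped to 0.22 without siNRP1#5 replicate 3 (adjusted p = 0.422). NT5E differed by 0.32 in MDA-MB-231 (adjusted p = 0.0353) and 1.11 in SUM159PT (adjusted p = 0.0401). The NT5E calls were lost without siNRP1#3 replicate 1 or 2 or siNRP1#5 replicate 1 or 3 in MDA-MB-231 (0.0728 to 0.124), and without any 1 of the 5 libraries in SUM159PT (0.0734 to 0.142). CD47 was lower with shNRP1#5 than with shNRP1#3 in MDA-MB-231 (-0.52, adjusted p = 0.0177), a call that was lost without replicate 2 or 3 of either group (0.0543 to 0.0987) and in the fit over 52 samples (0.24). By limma on log2(TPM + 0.1), NECTIN2 (0.24, adjusted p = 0.458), CD276 (0.36, 0.397) and NT5E (0.71, 0.237) did not pass in SUM159PT, nor NT5E in MDA-MB-231 (0.17, 0.291), whereas PVR passed in both lines in every alternative.

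The same #5 sequence gave different changes as siRNA and as shRNA for 3 of 7 members in MDA-MB-231, 1 in HS578T and 0 in SUM159PT, where 23.7, 0.854 and 2.51% of all genes differed. In MDA-MB-231 the shRNA change minus the siRNA change was 1.21 for PDCD1LG2 (adjusted p = 0.0044), -0.91 for CD276 (adjusted p = 0.00149) and -1.20 for NECTIN2 (adjusted p = 0.000718), so that the last pair rose with the siRNA and fell with the shRNA. All 3 held without any 1 library and were lost in the fit over 52 samples (0.263, 0.109 and 0.0701). In HS578T it was -2.11 for CD274 (SE 0.46, adjusted p = 0.0368). Without any 1 of 11 of the 12 libraries of these 4 groups this difference missed the threshold (adjusted p from 0.0554 to 0.126), and it passed without siNT replicate 3. It also missed by limma on TPM (0.0756 and 0.0667). With foreign RNA subtracted it was -2.19 (adjusted p = 0.0563), or -2.29 with the 60 markers (adjusted p = 0.0358). The deliveries differed in time, selection and culture as well, and these cannot be told apart.

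The non-targeting controls themselves differed. Between shNT and siNT, 3 members passed in MDA-MB-231 and 0 in SUM159PT and HS578T, beside 20.6, 14.4 and 17.9% of all genes. In MDA-MB-231, PVR was lower with shNT (131, 159.7 and 124 CPM, -0.75, adjusted p = 0.00052), as was CD276 (-0.52, adjusted p = 0.00823), while NT5E was higher (300.3, 313 and 320.3 CPM, 0.38, adjusted p = 0.0236). The NT5E call was lost without shNT replicate 2 or 3 or siNT replicate 1 or 2 (0.0682 to 0.0945), and all 3 were lost in the fit over 52 samples. CD276 was also lost by limma on log2(TPM + 1) (0.0781). In HS578T all shNT samples lay above all siNT samples for CD274 and below them for NECTIN2 (-0.95, adjusted p = 0.0976).

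The deposited values also split each gene into transcripts, as isoform percent, the percent of the gene's TPM that a transcript takes in a sample. The most abundant transcript of each gene with more than 1 transcript was compared with its control by an exact permutation test within lines, two-sided, over the 3 lines together, since a single line with 3 samples a group cannot go below p = 0.1. Of 24 tests 6 passed after adjustment over the 24, all of them with siRNA. The leading transcript was not always the full-length coding one. PVR-201, with 40.1% of PVR in the controls, is annotated as a target of nonsense-mediated decay. CD47-206 (52.0%) has 766 bases and 183 codons, while CD47-201 (14.3%) has 5228 bases and 305 codons. CD276-202 (46.3%) codes for 534 residues and stood beside a transcript with a retained intron (38.8%).

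NT5E-201, the coding transcript of 3562 bases and 574 codons, took a smaller share of NT5E with siNRP1#3. In MDA-MB-231 it made up 68.6, 66.2 and 70.7% of NT5E with siNT and 42.9, 44.6 and 43.2% with siNRP1#3. In SUM159PT the values were 75.6, 72.9 and 68.6% with siNT and 51.5, 61.7 and 38.9% with siNRP1#3, and in HS578T 84.8, 84.5 and 80.2% against 51.8, 74.3 and 32.6%. None of the 9 knockdown samples reached its control mean, and the mean difference was -25.6 percentage points (p = 0.00025, the smallest the exact permutation test can give, adjusted p = 0.006). NT5E-202, of 974 bases and 264 codons in 3 exons, showed the converse, with 40.4, 38.8 and 38.6% in MDA-MB-231 siNRP1#3 against 19.4, 22.5 and 20.9% with siNT. With siNRP1#5 the difference of NT5E-201 was -10.7 points (1 of 8 samples above its control mean, exact permutation, adjusted p = 0.0156). It missed the threshold when labels were permuted only among the same replicate number (0.0625), and was -3.63 points when the share was taken of expected counts (adjusted p = 0.0892).

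NECTIN2-202 gained 7.01 points with siNRP1#3 (9 of 9 samples above the control mean, exact permutation, adjusted p = 0.023), or 4.52 points of expected counts (8 of 9, adjusted p = 0.064), and 7.26 with siNRP1#5 (8 of 8, adjusted p = 0.0156, or 0.0625 within replicate numbers). PVR-201 gained 8.41 points with siNRP1#5 (8 of 8 samples, exact permutation, adjusted p = 0.009) and CD47-206 gained 5.64 (7 of 8, adjusted p = 0.01). The other 4 calls held on expected counts. Without HS578T or any 1 replicate number the smallest p that these permutations allow is 0.005 or 0.00926. Adjusted p under 0.05 then takes several tests at or near that floor, and no test reached it. NT5E-201 with siNRP1#3 stayed at the floor each time, between -31.3 and -21.0 points. Other calls moved off it, such as NT5E-201 with siNRP1#5 without HS578T (p = 0.03, exact permutation). NECTIN2-202 with siNRP1#3 was at p = 0.0926 without replicate 3 (exact permutation). PVR-201 with siNRP1#5 was at 4.94 points without HS578T. The share of a transcript also differed by line in the controls, where NECTIN2-202 took 63.3 ± 7.32% of NECTIN2 in HS578T, 51.7 ± 6.08% in SUM159PT and 27.2 ± 2.32% in MDA-MB-231 (SD, n = 6). In MDA-MB-231, NECTIN2-201 was the leading form at 40.1 ± 3.15%.

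**Figure D4:**
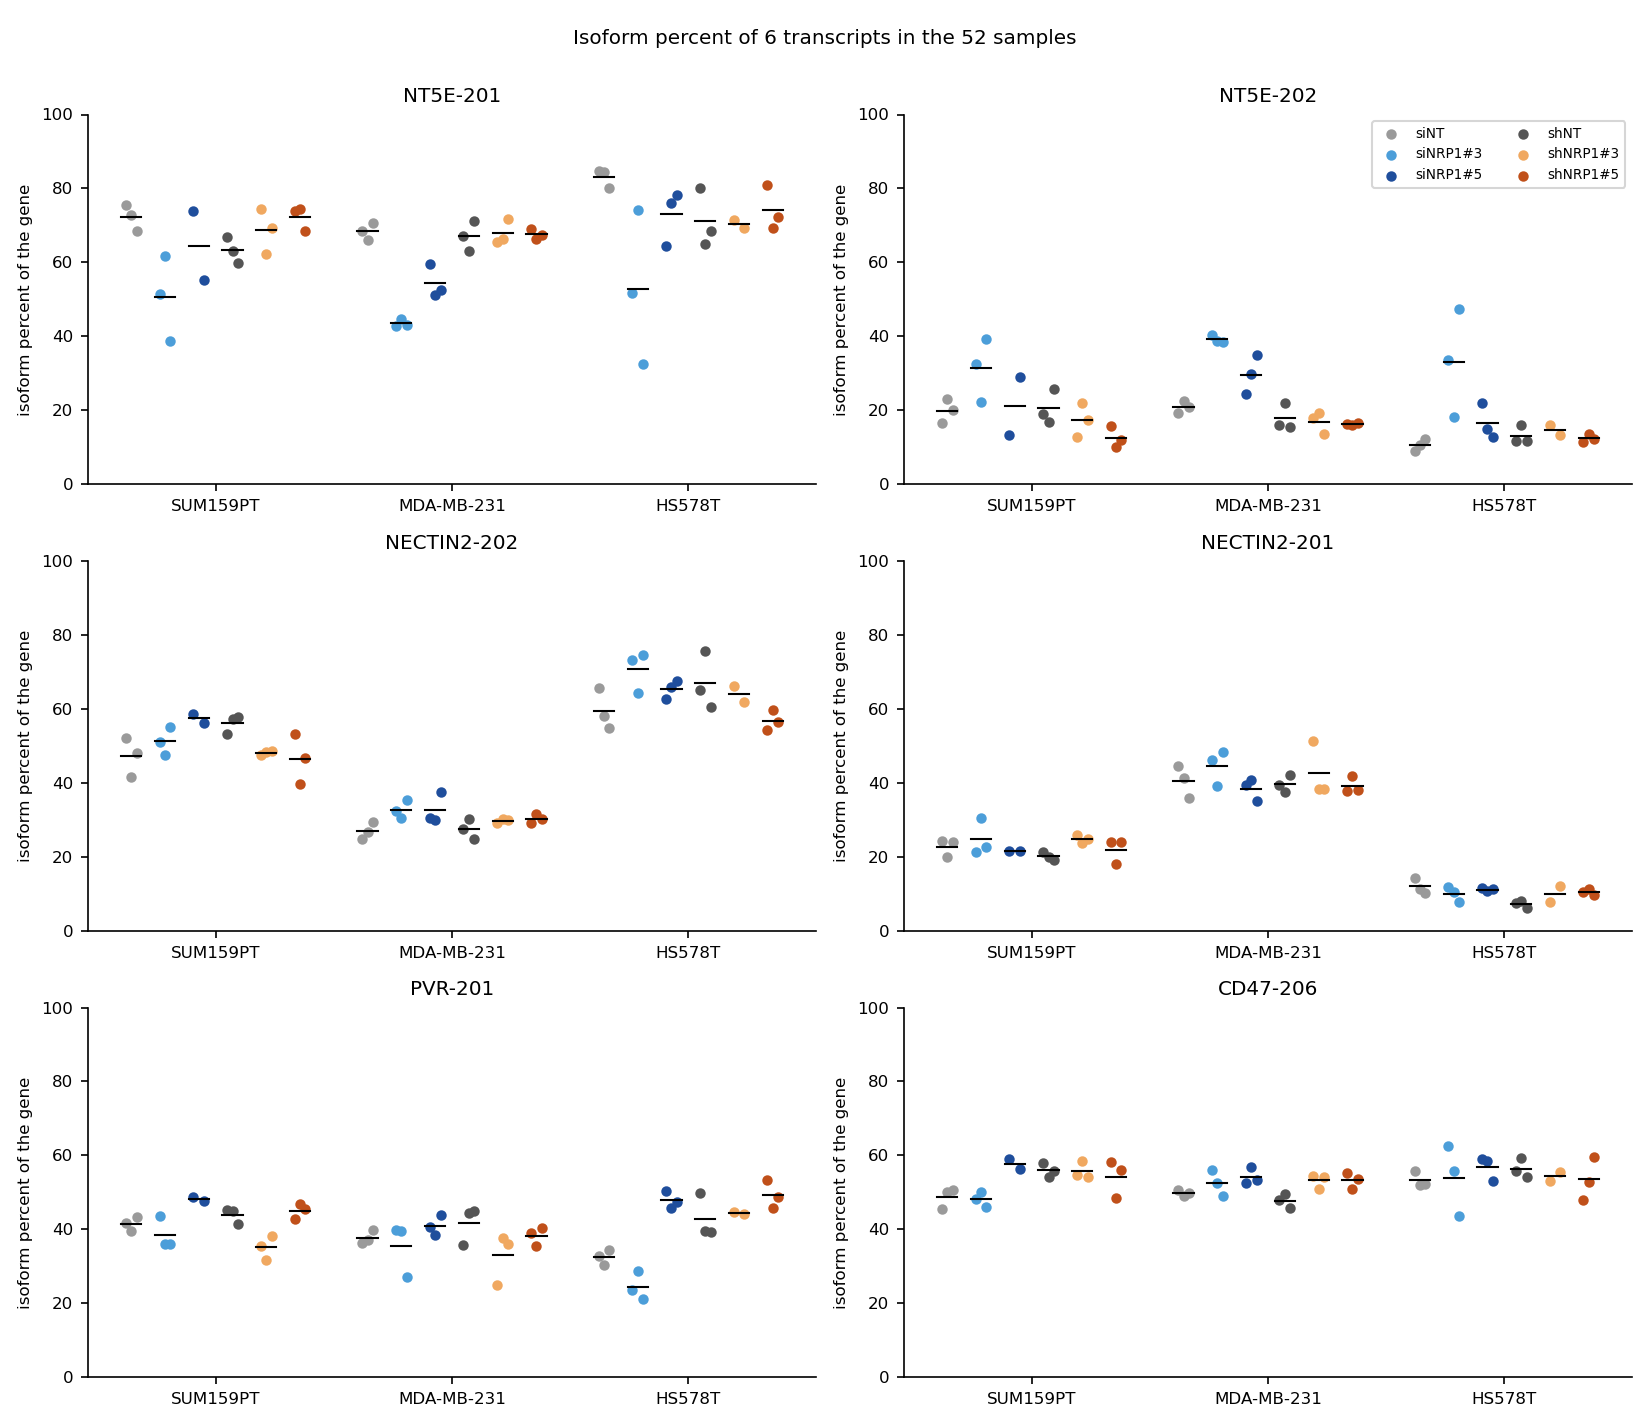
Isoform percent of NT5E-201, NT5E-202, NECTIN2-202, NECTIN2-201, PVR-201 and CD47-206 in each sample, by cell line and treatment. Each point is a sample. NT5E-201 is lower and NT5E-202 higher with siNRP1#3, most evenly in MDA-MB-231, where NT5E-201 lies between 42.9 and 44.6%.

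For CD274 with siNRP1#3 the direction depended on the unit in MDA-MB-231 and SUM159PT. In SUM159PT its mean with siNRP1#3 was 0.834 times that of siNT in CPM and 1.25 times in TPM, and the samples overlapped in CPM. In MDA-MB-231 siNRP1#3 its mean CPM was 0.908 times that of siNT, whereas its mean TPM was 1.73 times as high, and limma on log2(TPM + 0.1) gave 0.79 (adjusted p = 0.0066). CD274-203, a transcript of 442 bases and 2 exons without a defined coding sequence, was at 5.88, 6.11 and 5.37 TPM there against 1.14, 1.56 and 2.30 with siNT. Only 63.2, 68.2 and 40.0 expected counts stood behind it. CD274-202, which has 3634 bases and codes for the protein of 290 codons, was at 4.33, 4.02 and 3.27 TPM against 6.56, 4.50 and 4.71. In HS578T controls CD274-202 took only 31.4% of CD274 beside 66.7% in SUM159PT and 71.6% in MDA-MB-231, and CD274-205, without a defined coding sequence, took 31.7% beside 0.617 and 1.11%. The share of CD274-202 did not pass in any of its 4 tests (adjusted p of 0.096 or more).

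Genes around the members were read from 3 lists, of 36 other checkpoint and costimulatory ligands (32 tested in at least 1 line), 28 regulators of PD-L1 and PD-L2 expression (all tested) and 9 receptors of the members (7 tested). In MDA-MB-231, 13 of 26 ligands passed with siNRP1#3 (1 higher, 12 lower), 14 with siNRP1#5 (3 higher, 11 lower), 5 with shNRP1#3 (4 higher, 1 lower) and 11 with shNRP1#5 (4 higher, 7 lower). In SUM159PT the counts of 30 ligands were 6 (all lower), 8 (2 higher, 6 lower), 1 (higher) and 7 (2 higher, 5 lower) in the same order, and in HS578T those of 29 were 4 (2 higher, 2 lower), 8 (5 higher, 3 lower), 0 and 2 (1 higher, 1 lower). In the same order these counts were 50, 53.8, 19.2 and 42.3% of the ligands in MDA-MB-231, where 25.7, 29.4, 3.65 and 20.7% of all genes passed, 20, 26.7, 3.33 and 23.3% in SUM159PT beside 8.66, 17.9, 1.4 and 5.94%, and 13.8, 27.6, 0 and 6.9% in HS578T beside 4.65, 18.7, 0.0356 and 0.946%. ULBP2 and RAET1G, stress-induced ligands of the activating receptor NKG2D on natural killer cells, passed 6 times each in 12 comparisons, always lower, down to -2.65 for ULBP2 with siNRP1#5 in MDA-MB-231 and -2.03 for RAET1G with shNRP1#5 in SUM159PT. ULBP3, of the same family, passed 7 times (4 higher, 3 lower), from -2.12 with siNRP1#3 in MDA-MB-231 to 1.51 with shNRP1#5 in SUM159PT.

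Among the 28 regulators, 10, 11, 1 and 9 passed with siNRP1#3, siNRP1#5, shNRP1#3 and shNRP1#5 in MDA-MB-231 (3, 2, 0 and 1 of them higher), 3, 11, 0 and 3 in SUM159PT (all lower) and 3, 7, 0 and 1 in HS578T (2, 2, 0 and 0 higher). These were 35.7, 39.3, 3.57 and 32.1% of the list in MDA-MB-231, 10.7, 39.3, 0 and 10.7% in SUM159PT and 10.7, 25, 0 and 3.57% in HS578T, to be read against the shares of all genes just given. Of the interferon pathway IRF1 and JAK2 are given, chosen after their values had been seen. They do not stand for the pathway, and their part in the changes of CD274 was not tested. IRF1, which acts on the CD274 promoter, was at 0.67 and 0.61 in HS578T with siNRP1#3 and siNRP1#5 (adjusted p = 0.166 and 0.123). With siNRP1#5 it was at -0.06 in MDA-MB-231 and -0.77 in SUM159PT (adjusted p = 0.843 and 0.0693). IRF1 was lower in MDA-MB-231 with siNRP1#3 (-0.63, adjusted p = 0.023) and in SUM159PT with shNRP1#5 (-0.93, adjusted p = 0.035). JAK2 was lower in SUM159PT with siNRP1#5 (-1.37, adjusted p = 0.0252) and passed in no other knockdown comparison. IRF9, a factor of the type I interferon response, passed 5 times (1 higher, 4 lower). RELA, a subunit of NF-kappaB, passed 5 times, always lower, down to -1.38 with shNRP1#5 in SUM159PT. CMTM4, which protects PD-L1 from degradation, passed 5 times, always lower.

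Receptors of the members are mainly genes of immune cells, and 5 of the 9 were tested in HS578T and MDA-MB-231 and 7 in SUM159PT. None passed in HS578T, 3, 2, 1 and 2 passed in MDA-MB-231 with siNRP1#3, siNRP1#5, shNRP1#3 and shNRP1#5, and 0, 2, 0 and 2 in SUM159PT. With 5 or 7 genes, and 25.7, 29.4, 3.65 and 20.7% of all genes passing in MDA-MB-231 and 8.66, 17.9, 1.4 and 5.94% in SUM159PT, a difference of 1 or 2 genes from the background share is not a result. ADORA2A, the adenosine receptor downstream of NT5E, passed 3 times, at -1.15 with siNRP1#3 and 1.00 with siNRP1#5 in MDA-MB-231 (adjusted p = 0.00355 and 0.00687) and 3.64 with shNRP1#5 in SUM159PT (adjusted p = 0.00721). THBS1, the secreted thrombospondin that binds CD47, passed 3 times (1 higher, 2 lower). PDCD1, which encodes PD-1, was tested in SUM159PT alone, on few reads. It met the filter on low counts there only through samples of the #5 groups, where it was high. No other sample of the line exceeded 1 expected count. Its passes in 2 of 4 comparisons, counted above, therefore do not stand as evidence of a change. Its expected counts were 13, 39 and 5 with shNRP1#5 against 0, 1 and 0 with shNT, and 2 and 8 with siNRP1#5 against 0 in all 3 siNT samples, so that no fold is given.

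Across the 18 group means of log2 CPM, with the mean of each line subtracted, the genes most like each member were found by Pearson's r, as a description over points that share controls and libraries. KLF5 (r = 0.876), ENSG00000291124 (0.896) and RPL32P32 (0.870) were nearest to CD274, and without subtraction KLF5 led at 0.960. NOL3 (0.868), ITPR1 (0.864) and FBXO25 (0.854) were nearest to PDCD1LG2 (IL36RN at 0.882 without subtraction), and KDELR1 (0.925), PRSS2 (0.906) and GNG5 (0.875) to CD276 (PPIB at 0.938 without it). CD47 was nearest to GINM1 (0.919), SLC25A40 (0.888) and ENSG00000287166 (0.885), with GINM1 first at 0.915 without subtraction. NT5E was nearest to CAMK2G (0.938), TMEM43 (0.913) and SAPCD2 (0.890), and to SHB (0.979) without it. PVR was nearest to AEN (0.937), CLASRP (0.934) and ZNF598 (0.909), or EMC8 (0.886) without subtraction. NECTIN2 was nearest to CNPY3 (0.947), FDFT1 (0.934) and PIM1 (0.931), or ADAM15 (0.940) without it. Among the members, CD276 and NECTIN2 were most alike (0.78), followed by CD274 and PVR (0.60) and CD47 and NT5E (0.55). The neighbours CD274 and PDCD1LG2 had r = -0.37.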

How the data were processed

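Stranded poly(A) RNA sequencing of 52 cell line samples was used. Per the submitters' processing notes the tools were FastQC 0.11.9, Trim Galore 0.6.5, STAR 2.7.2b and RSEM 1.3.3, on GRCh38 with the Ensembl and GENCODE annotation. With RSEM the authors made the deposited expected counts (not scaled for library size), TPM (a transcript abundance scaled for length and depth) and isoform percent (the share of a gene's TPM that 1 transcript takes). No differential test was run by the authors. Every deposited column was assigned to a sample (0 unmapped). Positions came from GENCODE 44, whose gene identifiers and versions of the members were those of the deposited values.

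Expected counts were rounded and 1 model per line with 6 group means was fitted in edgeR 4.0.16 under R 4.3.3 (filterByExpr, TMM, estimateDisp, glmQLFit with robust estimation, glmQLFTest). Benjamini-Hochberg adjustment covered all genes tested in a line (19661 in HS578T, 18800 in MDA-MB-231, 20067 in SUM159PT), and adjusted p under 0.05 was called. Lines were compared, and equal change in the 3 lines was tested with 2 degrees of freedom, in 1 model over 52 samples and 23416 genes. CPM are counts scaled to a common total after TMM normalisation. Transcript shares were tested by exact two-sided permutation of labels within lines, with adjustment over 24 tests. Alternatives used limma 3.58.1 on log2(TPM + 0.1) and log2(TPM + 1), DESeq2 1.42.0, other filters, size factors and sets of samples, a replicate block, single libraries left out, and subtraction of RNA assigned to another line by markers at or under 0.5 CPM in one line and at or above 20 CPM in the other. Scripts used Python 3.11.15, pandas 2.3.3 and matplotlib 3.10.9, and the tests were tried on simulated counts.

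The members, gene lists and tests were chosen with earlier results of these data known. All members were named, and of each list the 3 genes that passed in the most of the 12 knockdown comparisons. The genes most like a member were the 3 with the highest Pearson's r over 18 group means of log2 CPM (prior count 2) less each line's mean, and the highest without that step. Same-numbered samples were taken as paired where all 3 pairs of a comparison correlated above 0.1 in their deviations, which held in 4 of 12 knockdown comparisons (SUM159PT siNRP1#3 and shNRP1#3, MDA-MB-231 siNRP1#5 and HS578T shNRP1#5). Replicates of a group differed by at least 11.0 in chi-square per degree of freedom, so that no library was a copy of another in its group. Libraries of different groups were not compared in this way. Reads carried no molecular identifiers, and SDs are between samples. The result of 1 gene of the regulator list is not reported here.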

Additional observations from a re-analysis of the deposited data

Results flagged for a closer look

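Changes that differed between cell lines, by a test of the difference itself on counts, were found 6 times. With siNRP1#3 these were CD274 (adjusted p = 9.7e-05, edgeR), with log2 fold changes of 3.21 in HS578T, -0.11 in MDA-MB-231 and -0.23 in SUM159PT, and PVR (adjusted p = 0.0183), with 0.52, -0.70 and -0.94 in the same order. With siNRP1#5 they were CD274 (adjusted p = 0.00305), with 3.43, 1.01 and 1.61, CD47 (adjusted p = 0.0070), with 0.27, -0.52 and -1.10, and PVR (adjusted p = 0.0175), with 0.34, 0.02 and 1.37. With shNRP1#5 it was PDCD1LG2 (adjusted p = 0.0376), with -0.54, -0.36 and -2.41. The values with siNRP1#5 are without subtraction of the MDA-MB-231 RNA in the HS578T libraries.

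Changes that differed between siRNA and shRNA of the same #5 sequence, by the interaction term, were found 4 times. CD274 in HS578T had 3.43 with the siRNA and 1.32 with the shRNA (adjusted p = 0.0368). In MDA-MB-231, PDCD1LG2 had -1.56 and -0.36 (adjusted p = 0.0044), CD276 had 0.45 and -0.46 (adjusted p = 0.00149), and NECTIN2 had 0.65 and -0.55 (adjusted p = 0.000718). The part that delivery, selection or time of harvest had in these differences was not tested.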

How the results depend on the processing

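Of the 84 knockdown tests of the members, 21 passed, and between 14 and 28 passed under the other settings (18 to 22 with 1 library left out). Between shNT and siNT, 3 passed, against 6 with the replicate block, 5 in DESeq2, 5 with only the 2 groups in the fit, 1 in the fit over 52 samples, and 2 to 3 with 1 library left out. Tests of equal change in the 3 lines gave 6 calls, and 1 to 4 without replicate 1, 2 or 3. The comparison of siRNA and shRNA gave 4, or 7 in DESeq2, and 3 to 6 with 1 library left out. Sequence #5 against #3 gave 15, or 8 by limma on log2(TPM + 1), and 12 to 16 with 1 library left out. Lines differed in 13 tests (12 to 13 without a replicate number). Transcript shares gave 6 calls and 0 without HS578T or without any 1 replicate number (lowest adjusted p 0.06 and 0.0741, exact permutation). Fewer samples raise the smallest p there, but some of the 6 also moved off that floor. By limma on TPM, CD274 with siNRP1#3 in MDA-MB-231 reversed from -0.11 to 0.79 with log2(TPM + 0.1) and to 0.72 with log2(TPM + 1), and PVR between HS578T and MDA-MB-231 from 0.04 to -0.76. The cause of the other shifts was not tested. Of 3364 values recomputed, 3089 kept their side of the threshold, though 127 of these, called in neither setting, changed sign.

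With the replicate number as a block, 28 knockdown tests passed, among them all 21, and 3 of the added calls fell where the numbers paired the samples: SUM159PT siNRP1#3 NT5E and PVR, and HS578T shNRP1#5 CD274. The correlation of same-numbered samples ran from -0.211 to 0.612 over 34 pairs, of which 22 exceeded 0.1, so that elsewhere the samples may share only a number. Depth limits CD274 and PDCD1LG2 most, at 19 and 17 expected counts in their lowest samples.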
